A study of Homo sapiens with 13 samples.

Results

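SWI/SNF complexes are ATP-dependent chromatin remodellers, and the genes of their subunits were examined here as sites of accessible chromatin in small cell lung cancer (SCLC). The list holds 31 genes, fixed by name, out of 20007 protein-coding genes of GENCODE release 44 on hg38, and all 31 were found. It comprises the ATPases SMARCA4 and SMARCA2, which are the targets of FHD-286, the core subunits, the subunits particular to canonical BAF, PBAF and ncBAF, the actin-related, BCL7 and SS18 subunits, and the factors BCL11A and BCL11B. For each gene, accessible regions were read over the gene body and 10 kb to either side, and separately over 1 kb to each side of the transcription start (TSS).

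The assay was ATAC-seq, which marks open DNA by letting Tn5 transposase insert sequencing adaptors into it, and the cells were the established SCLC lines H82 and H146. Cells were cultured untreated or with 100 nM FHD-286, an allosteric inhibitor of the SMARCA4 and SMARCA2 ATPase, for 14 days, and were frozen until use. There were 4 untreated and 3 treated samples of H146, and 3 untreated and 3 treated samples of H82, none with a genetic change that the labels name. The processed data gave 1 atlas of regions per line, pooled over untreated and treated samples, with no height, count or sample of origin.

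The effect of FHD-286 on these genes was therefore not tested, no value has a spread between replicate cultures, and library depth was unknown. A call in a single library is enough for a region to enter the atlas, and H146 had 7 libraries and H82 6. Per the study's methods, the H146 libraries came from 2 sequencing batches, 3 controls in one and the remaining control with the 3 treated samples in the other, and the atlas pools both. With 1 line of each kind, the line and its SCLC subtype cannot be told apart. As a check of the labels, the neuroendocrine genes INSM1, SYP, CHGA and NCAM1 each had a TSS region in both atlases, and NEUROD1 had one of 7865 bp in H82 and none in H146. The H82 atlas held 206927 regions and the H146 atlas 174093, which is 1.19 times as many in H82. Differences at the subunit genes are set beside that excess and beside all protein-coding genes.

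The motor of the complex, SMARCA4 or SMARCA2, spends ATP to move DNA along the histone core, and transcription factors gain access to sites that nucleosomes would hide. SMARCC and SMARCD proteins form a common core, which ARID1 and DPF proteins join in canonical BAF, ARID2, PBRM1, BRD7 and PHF10 in PBAF, and BRD9 with BICRA or BICRAL in ncBAF. SMARCB1 belongs to BAF and PBAF and is absent from ncBAF. Some positions are filled by alternative family members. When neural progenitors become neurons, ACTL6A, PHF10 or DPF2, and SS18 give way to ACTL6B, DPF1 or DPF3, and SS18L1.

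The sequences below show the DNA just upstream of the starts of both ATPase genes, of which 1 was open in H82 alone, and of BCL11B, whose start region differed most in width between the lines as a ratio. Each gives 250 bases before the first transcript start of its group on hg38, 5′ to 3′ on the strand of the gene. Capitals mark exact matches, on either strand, to GGGCGG (the SP box), GCGCATGC (NRF1), CCAAT and the E-box CAGATG, the words of the searched set that occurred in these stretches.
SMARCA4 main start, chr19:10960682-10960931, plus strand: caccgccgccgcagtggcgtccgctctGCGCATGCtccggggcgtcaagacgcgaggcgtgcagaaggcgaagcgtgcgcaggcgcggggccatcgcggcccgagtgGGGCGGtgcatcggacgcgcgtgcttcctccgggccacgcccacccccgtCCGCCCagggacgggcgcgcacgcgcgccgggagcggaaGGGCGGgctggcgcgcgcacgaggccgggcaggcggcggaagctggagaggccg
SMARCA2 main start, chr9:2014936-2015185, plus strand: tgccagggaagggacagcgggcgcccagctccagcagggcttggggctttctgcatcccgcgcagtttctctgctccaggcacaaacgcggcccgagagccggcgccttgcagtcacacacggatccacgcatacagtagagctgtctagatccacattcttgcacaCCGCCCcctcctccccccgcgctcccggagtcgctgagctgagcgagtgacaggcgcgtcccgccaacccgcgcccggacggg
SMARCA2 upstream start, chr9:1980040-1980289, plus strand: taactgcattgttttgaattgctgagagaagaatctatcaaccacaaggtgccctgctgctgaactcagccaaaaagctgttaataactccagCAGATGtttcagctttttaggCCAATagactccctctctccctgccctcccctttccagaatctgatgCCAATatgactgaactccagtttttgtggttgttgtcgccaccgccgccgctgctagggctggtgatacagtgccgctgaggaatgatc
SMARCA2 internal start, chr9:2157430-2157679, plus strand: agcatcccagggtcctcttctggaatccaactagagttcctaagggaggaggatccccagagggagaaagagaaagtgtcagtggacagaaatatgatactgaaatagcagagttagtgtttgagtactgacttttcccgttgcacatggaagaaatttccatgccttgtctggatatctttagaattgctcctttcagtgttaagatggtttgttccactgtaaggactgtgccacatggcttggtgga
BCL11B start, chr14:99272198-99272447, minus strand: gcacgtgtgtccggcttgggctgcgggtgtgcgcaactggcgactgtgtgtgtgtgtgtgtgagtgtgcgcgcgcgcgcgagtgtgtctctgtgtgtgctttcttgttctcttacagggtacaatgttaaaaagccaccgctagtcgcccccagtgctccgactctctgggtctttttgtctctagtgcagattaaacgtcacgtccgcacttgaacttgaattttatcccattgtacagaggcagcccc

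The stretch upstream of the SMARCA4 start was 79.2% GC, with 3 SP boxes and an NRF1 word. That of the main SMARCA2 start was 68% GC, with 1 SP box. Upstream of the SMARCA2 start that was open in H82 alone, GC content was 48.8%, and 2 CCAAT words and 1 E-box were found without an SP box. The internal SMARCA2 start, open in both lines, had 44.8% GC and none of the words. All 250 bases lay inside a region of both atlases at the main starts of SMARCA4 and SMARCA2 and at the internal start, and inside H82 alone at the upstream start. The BCL11B stretch, 54.8% GC and without any of the words, lay wholly inside an H82 region, and 193 of its bases inside one of H146.

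The first question was whether the subunit genes had an accessible start in both lines. Taking the TSS as the 5′ end of the gene record, 29 of the 31 had a region within 1 kb in both atlases, against 75.4% of all protein-coding genes. SMARCA2 had one in H82 only, a class that holds 5.09% of all genes. BCL7A had one in neither, a class of 17.7% of all genes, and 0 members had one in H146 only, a class of 1.86%. At the TSS of the canonical transcript, the single transcript that Ensembl takes to represent the gene, all 31 members had a region in both atlases, against 77.8% of all genes. Both exceptions thus came from a gene record that begins with 1 transcript upstream of the canonical start.

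Widths of the region at the canonical TSS were close between the lines for most members. The medians were 2255 bp (H82) and 2344 bp (H146), against 1785 and 1717 bp for all genes with a region there. It was wider in H82 at 12 members, wider in H146 at 18 and equal at BRD9, with 2444 bp in both. Among the 15571 genes with a region at the canonical TSS in both lines, 44.2% had the wider one in H82. A width ratio of 1.5 or more in favour of H82 occurred at 3 members, BCL11B, SMARCB1 and SMARCD3, and a ratio of that size in favour of H146 at 0. For all genes these shares were 13.1% and 6.80%.

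Over the whole windows, the H82 atlas held 353 regions at the members and the H146 atlas 312, a ratio of 1.13. Regions that touched one of the other atlas by 1 bp or more were counted as shared, and the rest as line-only. Of the H82 regions 119 (33.7%, exact Clopper-Pearson 95% interval 28.8% to 38.9%) were H82-only, and of the H146 regions 75 (24.0%, interval 19.4% to 29.2%) were H146-only. These intervals cover counting error only. The same shares over the windows of all protein-coding genes were 40.6% and 28.3%. Without ARID1B, which has the longest window, the shares of the members were 38.1% and 24.4%. The share of window bases inside regions, here the covered share, was higher in H82 at 19 of 31 members, against 59.4% of all genes, and its median was 11.9% in H82 and 10.4% in H146. The median difference was 0.60 percentage points, beside 0.63 for all genes, so the members as a list lay close to the genome in this respect.

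**Figure D1:**
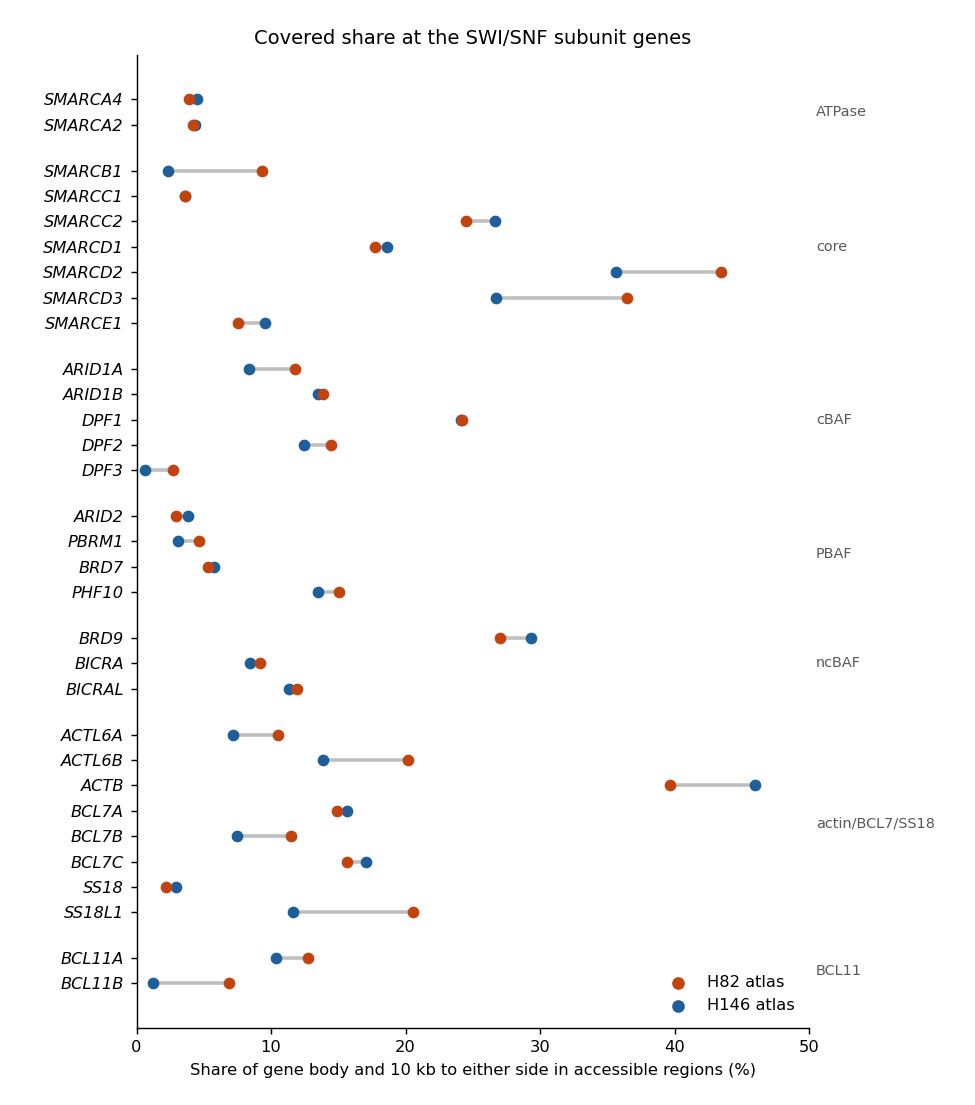
Covered share of the gene body and 10 kb to either side (x axis, percent) for each of the 31 subunit genes, grouped by module, with 1 point per atlas joined by a bar. SMARCD3, SS18L1, SMARCD2 and SMARCB1 have the widest gaps in favour of H82 and ACTB the widest in favour of H146, while both ATPase genes differ by under 1 percentage point.

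SMARCA4 (chromosome 19, 10960932 to 11079426, plus strand), also known as BRG1, was accessible at its start in both lines. The region over the TSS measured 1399 bp in H82 and 1838 bp in H146. Starts of protein-coding transcripts were joined into groups within 1 kb. Of 10 such groups at SMARCA4, 3 had a region in both lines and the others in neither. The internal ones lay 23.3 kb downstream, with regions of 213 and 295 bp, and 72.6 kb downstream, with regions of 1281 and 1338 bp. The sites at the starts were thus the same in H82 and H146, and the last of them nearly equal in width.

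Away from the starts the lines shared less. SMARCA4 had 10 regions in H82, 4 of them H82-only, and 11 in H146, 5 of them H146-only. Every one of these 9 line-only regions was under 500 bp wide, the widest being 398 bp. Regions took up 3.94% of the window in H82 and 4.51% in H146, and bases in both atlases made up 0.554 of the bases in either (the Jaccard index), close to the median of 0.551 over all genes.

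SMARCA2 (chromosome 9, 1980290 to 2193624, plus strand) encodes the alternative ATPase, and its starts differed between the lines. The record begins at a start used by 1 annotated transcript. There H82 had a region of 1774 bp, from 1978920 to 1980693, and H146 had none within 10 kb, so that 8.87% of the 10 kb to either side was covered in H82 and 0% in H146. The main start, a group of 19 transcripts that includes the canonical one, lies 35.1 kb further along. Its region spanned 3955 bp in H82 and 4016 bp in H146. Both ended at the same base, and that of H146 began slightly earlier.

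A further group of 16 transcript starts lies 177 kb into SMARCA2. Its regions measured 1236 bp in H82 and 1342 bp in H146, and the next group, 179 kb in, had 647 and 764 bp. SMARCA2 therefore had 3 start groups open in both lines and 1 open in H82 alone, and 7 others open in neither. Over the whole window the count went the other way, with 10 regions in H82 (2 H82-only) and 14 in H146 (6 H146-only). These 6 measured 200 to 331 bp, and 4.21% of the window was covered in H82 and 4.36% in H146.

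The upstream H82-only region of SMARCA2 held the E-box CAGATG, a form read by NEUROD1 and related basic helix-loop-helix factors, 5 times in 1774 bp, or 2.82 matches per kb. Over all 84208 H82-only regions the density was 1.24 per kb. The densest 200 bases of the region are printed with matches on either strand in capitals, to show how closely they lie. The words searched were the E-boxes CAGATG and CAGCTG, the OTX2 word TAATCC, the FOXA word TGTTTAC and the AP-1 word TGACTCA. In the whole region CAGCTG occurred at 0.564 per kb, against 0.809 over all H82-only regions, and TAATCC 0 times, against 1.26 per kb. TGTTTAC and TGACTCA each occurred 1 time. The other H82-only region of SMARCA2 held no CAGATG. Over the H82-only regions of all members CAGATG stood at 1.17 per kb. A match is a run of letters and does not show binding.
SMARCA2 upstream region, chr9:1979051-1979250, plus strand: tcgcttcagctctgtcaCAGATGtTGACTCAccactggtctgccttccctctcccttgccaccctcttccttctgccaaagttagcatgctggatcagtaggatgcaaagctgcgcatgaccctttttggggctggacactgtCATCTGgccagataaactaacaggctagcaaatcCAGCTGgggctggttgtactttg

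**Figure D2:**
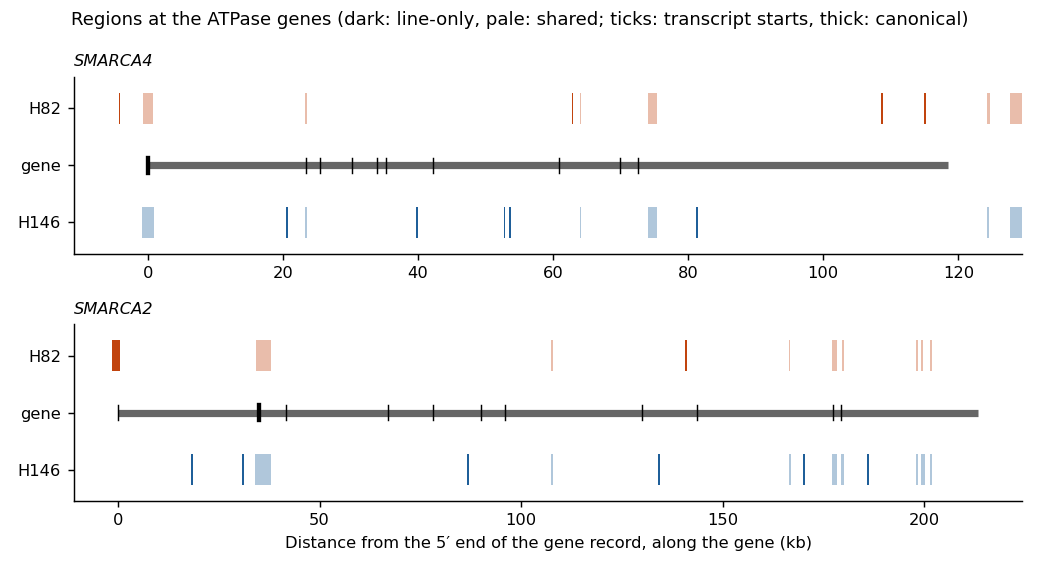
Regions at SMARCA4 and SMARCA2 along each gene (x axis, kb from the 5′ end of the gene record), H82 above and H146 below, with line-only regions dark, shared regions pale, ticks at transcript starts (thick at the canonical one) and the narrowest regions drawn wider than scale. At SMARCA2 the first start carries a dark H82 region and no H146 region, and the canonical start carries a pale region in both.

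Among the core subunits, SMARCB1, SMARCD2 and SMARCD3 were covered more in H82, SMARCC2, SMARCD1 and SMARCE1 more in H146, and SMARCC1 was nearly equal. All 7 had a region at the start in both lines. The core held 54 regions in H82 (20 H82-only) and 47 in H146 (10 H146-only). SMARCC1 and SMARCC2 are the scaffold around which the complex assembles, and SMARCE1 is a DNA-binding subunit of the BAF and PBAF forms.

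SMARCB1 (chromosome 22, 23786931 to 23838009, plus strand), the subunit that grips the nucleosome face opposite the motor and is lost in rhabdoid tumours, had a start region of 1280 bp in H82 and 466 bp in H146. Its window held 6 regions in H82, of which 4 were H82-only, and 2 in H146, both shared. Regions covered 9.31% of it in H82 against 2.35% in H146, a difference of 6.97 percentage points. Most of this lay outside the gene, since in the gene body alone the difference was 0.94 percentage points. Downstream of the gene an H82-only region of 2847 bp, from 23844854 to 23847700, was the widest line-only region of any member.

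SMARCD3 (chromosome 7, 151238764 to 151277896, minus strand), the SMARCD subunit of heart and neural complexes, had the largest difference of all members, 36.4% in H82 and 26.7% in H146. A region over its canonical start spanned 13286 bp in H82. In H146 the same stretch was split into regions of 8582, 2188 and 350 bp. There were also 9 H82-only regions, from 211 to 689 bp, against 1 H146-only region of 474 bp. At its upstream start group the regions measured 2645 and 2171 bp, so both promoters were accessible in both lines.

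SMARCD2, which is required for granulocyte formation, was covered to 43.5% in H82 and 35.7% in H146 with nearly the same sites, 6 regions against 7 and 1 line-only region in each. Its start region measured 4029 bp in H82 and 3036 bp in H146. SMARCD2 thus differed in width more than in sites. At SMARCC2 the overlap was the highest of all members, with a Jaccard index of 0.918, and H146 had 8 regions to 6 in H82. The widest regions counted there, 5001 and 3540 bp in H82, lay downstream at the starts of MYL6 and MYL6B. In the SMARCC2 gene body alone 8.03% was covered in H82 and 10.5% in H146. SMARCD1 had 8 H82 and 10 H146 regions, with covered shares of 17.7% and 18.6%. SMARCE1 had 4 and 6 regions, with 7.51% and 9.56%. SMARCC1, the paralogue of SMARCC2, had 10 regions in H82 and 6 in H146 at nearly equal covered shares of 3.61% and 3.57%.

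The canonical BAF subunits ARID1A, ARID1B, DPF1, DPF2 and DPF3 all had the larger covered share in H82, 5 of 5 genes, against 59.4% of all genes. Relative to the 500 kb to either side of each window, 1 of 5, DPF2, was larger in H82. ARID1A and ARID1B are alternative DNA-binding subunits of this form, and DPF proteins read acetylated histone tails. The differences ran from 0.12 percentage points at DPF1, whose gene body alone favoured H146 by 3.22 points, to 3.37 at ARID1A. The module as a whole had 118 regions in H82 (36 H82-only) and 114 in H146 (29 H146-only).

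ARID1B (chromosome 6, 156776020 to 157210779, plus strand) has the longest window of the list, 455 kb, and held the most regions, 80 in H82 and 87 in H146. It also had the most line-only regions in either line, 15 H82-only and 20 H146-only, and covered shares of 13.9% and 13.5%. Its main start region measured 4414 bp in H82 and 4333 bp in H146. Of 12 start groups, 1 of a single transcript, 260 kb into the gene, had a region in H82 (1052 bp) and none in H146. ARID1A had 10 H82 and 7 H146 regions, with covered shares of 11.7% and 8.38%, and regions of 3514 and 3250 bp at its canonical start.

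DPF3 (chromosome 14, 72609034 to 72894101, minus strand), a DPF subunit of heart and neurons, had the largest ratio of H82 to H146 regions of any member, 4.33. H82 had 13 regions, 11 of them H82-only, and H146 had 3, 1 of them H146-only. The start was accessible in both, with 1737 bp in H82 and 1282 bp in H146. Its H82-only regions lay from 152 to 293 kb downstream of the start, in the second part of the gene and beyond its 3′ end, and measured 225 to 1138 bp. Covered shares were 2.68% and 0.615%, and the Jaccard index was 0.197, with 7.62% of all genes lower.

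Of the 11 H82-only regions at DPF3, 10 contained CAGATG or CAGCTG, against 58.6% of all H82-only regions. Region widths were not matched in this count, and these 11 measured 225 to 1138 bp beside an atlas median of 377 bp. Over all members the share was lower, 63 of 119 (52.9%), with 7 of 15 at ARID1B and 3 of 8 at SS18L1. It was above the atlas share at SMARCD3 (7 of 9), BCL11B (3 of 4) and SMARCA2 (2 of 2) too. The widest of the DPF3 regions lies in an intron, and its 200 bases with most matches to the words listed above are shown.
DPF3 intron region, chr14:72643331-72643530, plus strand: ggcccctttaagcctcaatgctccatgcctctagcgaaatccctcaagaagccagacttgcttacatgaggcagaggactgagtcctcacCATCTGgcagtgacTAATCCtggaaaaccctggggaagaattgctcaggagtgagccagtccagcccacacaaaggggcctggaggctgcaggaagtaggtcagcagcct

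DPF2, the ubiquitous family member, had 6 H82 and 7 H146 regions, with covered shares of 14.5% and 12.5%. DPF1, its neuronal relative, had 9 and 10, with 24.2% and 24.1%, and start regions of 1411 and 1204 bp at the canonical TSS. In both genes H82 and H146 each had line-only regions, 2 or 3 per line. The H82 excess in region number at DPF3 was thus absent at DPF1 and DPF2, where H146 had 1 region more.

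All 4 PBAF genes were open at the start in both lines, and PBRM1 differed most in its sites elsewhere. PBRM1, the bromodomain subunit that names the complex, had 12 regions in H82 (7 H82-only) and 6 in H146 (1 H146-only), with covered shares of 4.67% and 3.10%. Its start region measured 1036 and 1061 bp. The 7 H82-only regions were narrow, 251 to 582 bp, with 5 of them in introns. A shared region downstream of the gene, at the start of NT5DC2 and in H82 also at that of UQCC5, measured 4440 bp in H82 against 1434 bp for its H146 counterpart. One H146-only region, 1121 bp wide, was centred on an exon of the canonical transcript and also lay inside UQCC5. ARID2, the AT-rich interaction subunit of PBAF, had start regions of 4362 bp in H82 and 5465 bp in H146, among the 3 widest of the list in both lines at the 5′ end of the record but not at the canonical TSS. Its covered shares were 2.95% and 3.84%, and 2 intron regions of 364 and 349 bp were H146-only.

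BRD7, a bromodomain protein, had 6 regions in each line, 1 H82-only and 2 H146-only, and covered shares of 5.34% and 5.77%. In its gene body alone the shares were nearly equal, 1.80% in H82 and 1.74% in H146. PHF10, which marks the progenitor form of PBAF, had start regions of 3044 and 3058 bp, with 15.0% and 13.5% covered.

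The ncBAF genes BRD9, BICRA and BICRAL had the lowest H82-only share of the 7 modules, 8 of 39 regions (20.5%, interval 9.30% to 36.5%), and 7 of 36 (19.4%) were H146-only. BRD9, whose bromodomain defines this form, had 11 regions in each line and a Jaccard index of 0.763. Regions covered 27.0% of its window in H82 and 29.3% in H146. Most of its regions in each line were shared ones centred inside the neighbouring gene ZDHHC11. In the BRD9 gene body alone the covered shares were 19.1% in H82 and 19.0% in H146. BICRA and BICRAL, the alternative scaffolds of ncBAF, differed by 0.77 and 0.60 percentage points in favour of H82. For BICRAL the Jaccard index reached 0.825.

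Among the actin-related, BCL7 and SS18 subunits, 4 genes had the larger covered share in each direction. SS18L1 (chromosome 20, 62143769 to 62182514, plus strand), the neuronal counterpart of SS18, was covered to 20.5% in H82 and 11.6% in H146, with 14 regions (8 H82-only) against 7 (1 H146-only). Its start region, shared with the proteasome gene PSMA7 on the other strand, was 2970 bp in H82 and 3394 bp in H146. SS18, the subunit fused to SSX in synovial sarcoma, had its start region of 2096 and 2615 bp and almost nothing else, with 1 region in H82 and 2 in H146. It was the most sparsely marked member by number.

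ACTL6A, the actin-like subunit of progenitors, had 7 H82 regions against 2 of H146, with 10.5% and 7.17% covered. ACTL6B, which takes its place in neurons, had 8 and 6 regions, with 20.2% and 13.9% covered. The ACTL6B difference came from downstream of the gene, over the neighbouring TFR2, and in the gene body alone H146 was higher, 21.5% against 18.6%. The start of ACTL6B carried 983 bp in H82 and 1054 bp in H146, so the neuronal subunit gene was accessible at its promoter in both.

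ACTB, the beta-actin gene, was covered to 46.0% in H146 and 39.6% in H82. Of the 5 largest differences, those of SMARCD3, SS18L1, SMARCD2, SMARCB1 and ACTB, it was the one in favour of H146. Its 12 H82 regions were all shared. The canonical start region measured 4698 bp in H82 and 5611 bp in H146, and the H146-only regions were 2 intron sites of 277 and 424 bp.

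BCL7A (chromosome 12, 122019422 to 122062044, plus strand), a nucleosome-contacting subunit mutated in lymphoma, had no region within 1 kb of the 5′ end of its record in either line. Its canonical start, 2.46 kb further along, carried 3283 bp in H82 and 3522 bp in H146. An H146-only region of 1311 bp in an intron, 9.11 kb from the 5′ end, was the widest H146-only region of any member. It held CAGCTG 3 times and CAGATG once, far enough apart that no stretch of 200 bases holds more than 1 match, and 1 such stretch is shown beside the H82 examples.
BCL7A intron region, chr12:122028532-122028731, plus strand: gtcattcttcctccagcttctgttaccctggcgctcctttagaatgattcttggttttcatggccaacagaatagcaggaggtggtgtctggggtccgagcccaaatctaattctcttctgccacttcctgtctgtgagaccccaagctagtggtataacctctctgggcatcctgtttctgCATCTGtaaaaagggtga

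BCL7B had 7 H82 and 5 H146 regions, with 11.5% and 7.48% covered, and 2 of the regions of each line were shared. BCL7C had 12 and 11 regions, with 15.6% and 17.1% covered. In its gene body alone H82 was higher, 14.0% against 13.0%. BCL7B and BCL7C are paralogues of BCL7A.

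The BCL11 genes code for zinc-finger factors that bind BAF in brain and blood cells, and both were covered more in H82. BCL11B (chromosome 14, 99169287 to 99272197, minus strand) had the largest width ratio between the lines at the canonical start of any member. Around it H82 had regions of 3484 and 1495 bp, while H146 had small regions of 323 and 200 bp. Within 10 kb of the TSS, 29.8% of bases were covered in H82 and 7.41% in H146, a difference of 22.4 percentage points. The ratio of the widest regions was 10.8. The H82 region of 3484 bp also overlapped a separate H146 region of 640 bp further upstream, so this ratio sets 1 merged H82 region against a single piece of a broken H146 one.

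BCL11B also had 4 H82-only regions and 0 H146-only regions, with 6.85% and 1.21% of the window covered. The Jaccard index of 0.160 was the lowest of the list. One H82-only region of 2021 bp lay in an intron, 40.5 kb from the start, and held CAGCTG 4 times and CAGATG once. It was the widest line-only intron region of any member, and 200 bases of it with 1 match are shown.
BCL11B intron region, chr14:99231681-99231880, plus strand: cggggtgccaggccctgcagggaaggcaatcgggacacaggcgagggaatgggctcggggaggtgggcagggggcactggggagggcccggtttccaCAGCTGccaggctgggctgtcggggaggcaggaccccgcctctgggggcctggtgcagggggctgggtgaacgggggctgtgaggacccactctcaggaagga

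BCL11A (chromosome 2, 60450520 to 60554467, minus strand) had the widest region at the 5′ end of the gene record in both lines, 6946 bp in H82 and 7039 bp in H146. At the canonical TSS that of SMARCD3 was wider. H82 had 18 regions, 8 of them H82-only, and H146 had 12, 2 of them H146-only. Covered shares were 12.7% and 10.4%. Its promoter was thus alike in both lines where that of BCL11B was not.

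**Figure D3:**
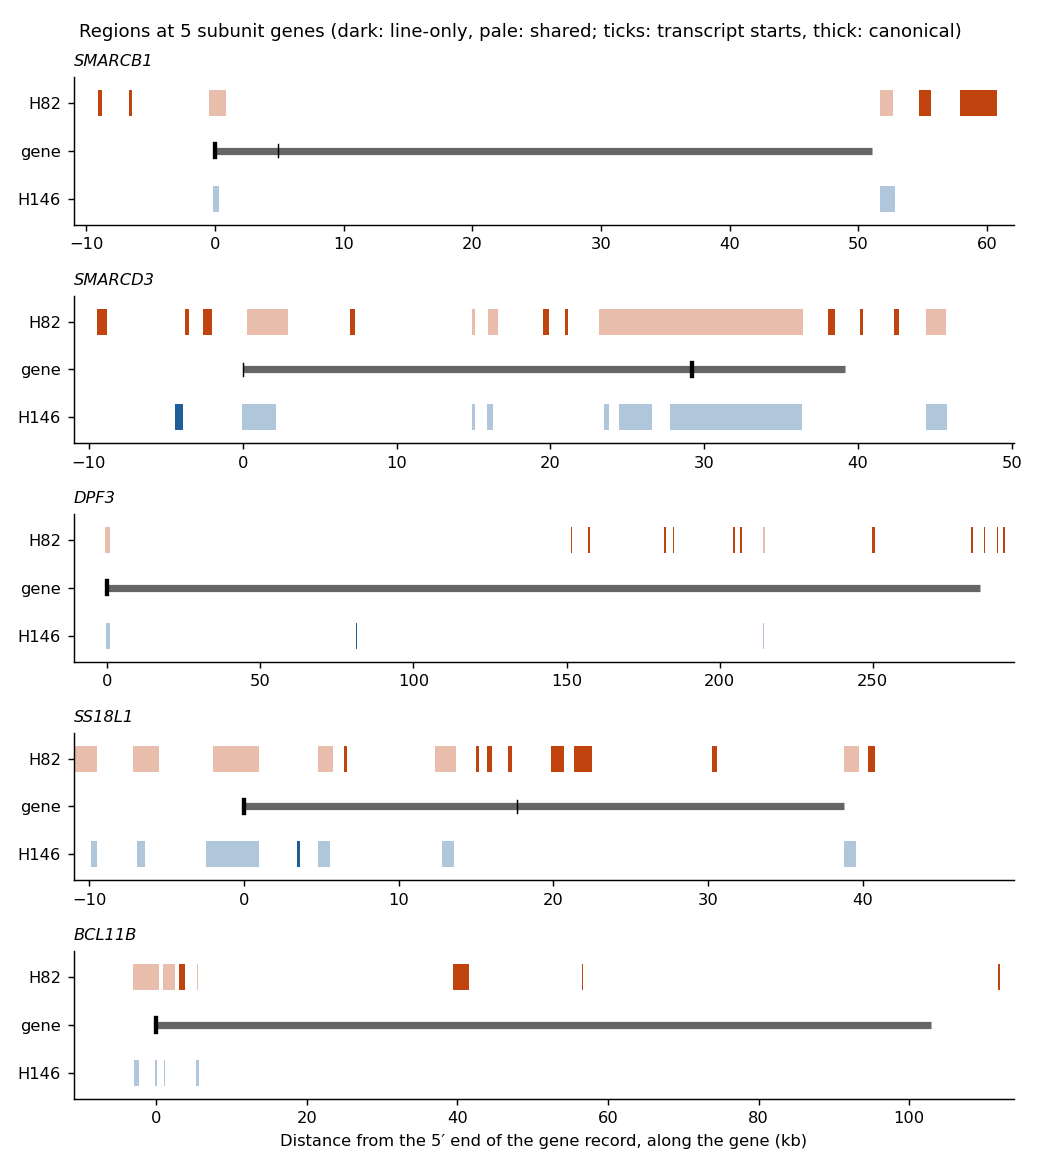
Regions at SMARCB1, SMARCD3, DPF3, SS18L1 and BCL11B along each gene (x axis, kb from the 5′ end of the gene record), H82 above and H146 below, with line-only regions dark, shared regions pale, ticks at transcript starts (thick at the canonical one) and the narrowest regions drawn wider than scale. DPF3 shows 11 dark H82 regions and BCL11B a start region far wider in H82.

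The neuronal and progenitor members of the exchangeable positions were set side by side. ACTL6B, DPF1, DPF3 and SS18L1 together had 44 regions in H82 (23 H82-only) and 26 in H146 (5 H146-only), and all 4 had the larger covered share in H82, against 59.4% of all genes. In the gene body alone this held for 2 of 4, since DPF1 and ACTL6B favoured H146, and relative to the 500 kb to either side for 0 of 4. ACTL6A, PHF10, DPF2 and SS18 had 20 in H82 (10 H82-only) and 15 in H146 (4 H146-only), with the larger share in H82 at 3 of 4, and at 2 of 4 (PHF10 and DPF2) relative to the surroundings. The H82-only shares of regions were 52.3% at the neuronal and 50% at the progenitor genes, against 40.6% for all genes. The H146-only shares were 19.2% and 26.7%, against 28.3%. DPF3 held 11 of the 23 H82-only regions of the neuronal genes. Median covered shares of the neuronal genes were 20.4% in H82 and 12.7% in H146, and those of the progenitor genes 12.5% and 9.82%. Each of these 8 genes had a region at its canonical start in both lines, so neither set was closed in either line. With 4 genes a set and 1 atlas a line, no test of this difference could be made.

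Line-only regions of the members were narrower than shared ones and mostly away from starts, as those of the atlases at large were narrow. Their median width was 329 bp in H82 and 266 bp in H146, against 897 and 798 bp for shared regions at the members, and 70.6% and 93.3% of them were under 500 bp. Of all line-only regions of the atlases, 67.0% in H82 and 84.1% in H146 were under 500 bp. By the position of the centre, 73 of 119 in H82 (61.3%) were intronic, as were 54 of 75 in H146 (72.0%). Within 1 kb of a start of their own gene lay 3 H82-only regions (2.52%) and 1 H146-only region (1.33%), and 0 lay at the TSS of another gene. Of the shared regions at the members, 23.1% in H82 and 22.8% in H146 lay within 1 kb of a start of their own gene. Of 89 start groups over all members, 55 were open in both lines, 31 in neither, 3 in H82 alone (at SMARCA2, ARID1B and SS18L1) and 0 in H146 alone. The intronic shares and the counts at starts were not measured for the line-only regions of the whole atlases. They are therefore no trait particular to the members. The counts of start groups are likewise not set beside those of all genes.

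**Figure D4:**
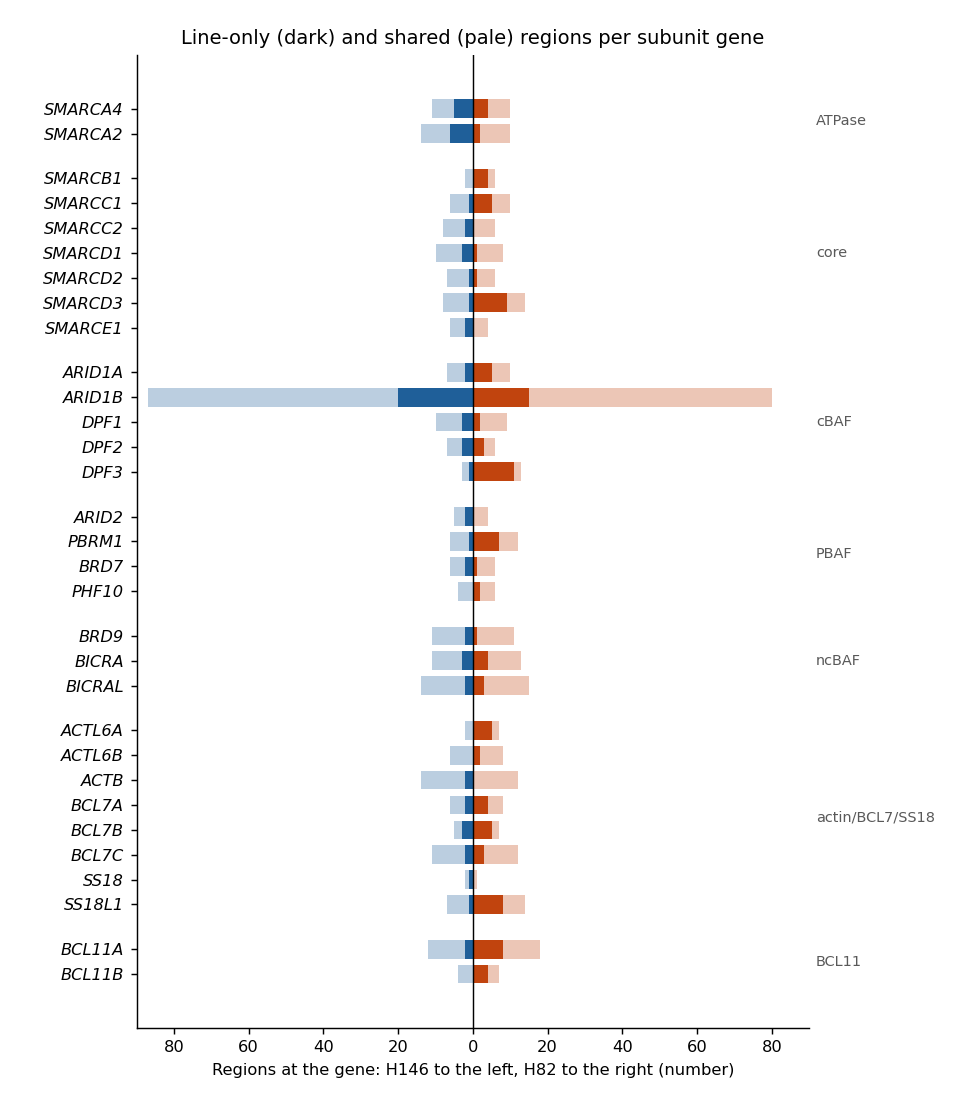
Number of regions over the gene body and 10 kb to either side of each subunit gene, H146 to the left and H82 to the right, with line-only regions dark and shared regions pale. ARID1B has the most in both lines, and DPF3, SMARCD3, SS18L1 and BCL11A have more dark H82 than H146 regions.

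Words in these line-only regions were counted beside all line-only regions of the same atlas. CAGATG occurred in 44 of 119 H82-only regions at members (37.0%), against 43.4% of all H82-only regions, and in 12 of 75 H146-only regions (16.0%), against 27.3%. CAGCTG occurred in 31.1% and 22.7%, against 30.8% and 26.4%. TAATCC, read by OTX2, was in 34.5% of those of H82 (atlas 44.1%) and in 3 of 75 of those of H146 (atlas 14.5%). FOXA words were in 6.72% and 10.7%, against 6.28% and 10.8%, and AP-1 words in 6 of 119 and 3 of 75, against 9.26% and 9.06%. The regions of the whole atlases were wider, with medians of 377 and 315 bp. By share of regions, the line-only regions of the members held these words no more often than the atlas at large, apart from CAGCTG and FOXA in H82, which exceeded it by under 1 percentage point. Per kb, which allows for width, CAGCTG (0.889 against 0.809) and FOXA (0.160 against 0.130) were above the atlas in H82. FOXA was also above it in H146 (0.325 against 0.315), and the other words were below it.

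Promoters of the members were rich in GC. Over 250 bases before to 50 after the canonical TSS, median GC content was 70%, against 63.7% for all protein-coding genes and 66% for the 54 genes of other remodellers. The ratio of observed to expected CpG was 0.6 or more in 30 of 31, against 67.4% of all promoters, with ACTL6A the exception. The SP box GGGCGG occurred in 28 of 31 (all promoters 61.3%), and ARID2, DPF2 and BCL11B lacked it. AAGATGGC, the word of YY1, occurred at SMARCC2, SMARCD1, DPF2 and BCL11B, 12.9% of members against 4.05% of promoters. TATAAA was found at ACTB alone (all promoters 9.71%). CCAAT was present at 10 members (32.3%, all promoters 36.1%), CCGGAAG (ETS) at 3 (9.68%, 14.1%) and GCGCATGC at 1 (3.23%, 4.27%), SMARCC1. The NRF1 word printed for SMARCA4 lies outside this window, since the canonical TSS is 98 bp beyond the 5′ end of the record. TTCAGCACC, a part of the RE1 site, and TGACGTCA (CRE) occurred at 0 members, against 0.370% and 2.69% of promoters, and the E-boxes CAGATG and CAGCTG at 1 and 3, against 10.9% and 17.7%.

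As a comparison, 54 genes of the ISWI, CHD and NuRD, and INO80, SRCAP and TIP60 remodellers were measured in the same way. All 54 had a region at the canonical TSS in both lines, as the SWI/SNF genes did. They held 508 regions in H82 and 394 in H146, with 41.1% H82-only (interval 36.8% to 45.6%) and 25.9% H146-only (interval 21.6% to 30.5%). The covered share was higher in H82 at 34 of them. The H82-only share of 33.7% at the SWI/SNF genes lay below the interval of the other remodellers, but both intervals overlapped, and the H146-only shares lay within each other's intervals. Without ARID1B, the longest window of the list, the H82-only share was 38.1%, inside the interval of the other remodellers. Regions of 1 gene share their surroundings, so these are not independent counts.

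Since the H82 atlas is the larger, the 500 kb to either side of each window were measured too. The surroundings were covered more in H82 at 25 of 31 members, with medians of 12.0% and 9.72%, and for 23 members the window and its surroundings were higher in the same line. Relative to its surroundings, the covered share was larger in H82 at 9 members, against 44.3% of all genes. Against their surroundings, fewer members thus stood on the H82 side than by covered share alone. The part of the surroundings in the differences at the genes was not tested.

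DPF3 and ARID1A lay in segments that were covered more in H82 as a whole. Around DPF3 there were 116 regions in H82 and 16 in H146, a ratio of 7.25, beside 4.33 in its window. Around ARID1A the numbers were 188 and 66. BCL11B and SMARCB1 went further than their surroundings, with covered ratios of 5.67 and 3.97 at the gene against 1.81 and 2.42 around it. SS18L1, at 1.77, lay close to its surroundings at 1.81. SMARCD3, with the largest difference in covered share, had a ratio of 1.36 over its window and 1.61 around it.

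**Figure D5:**
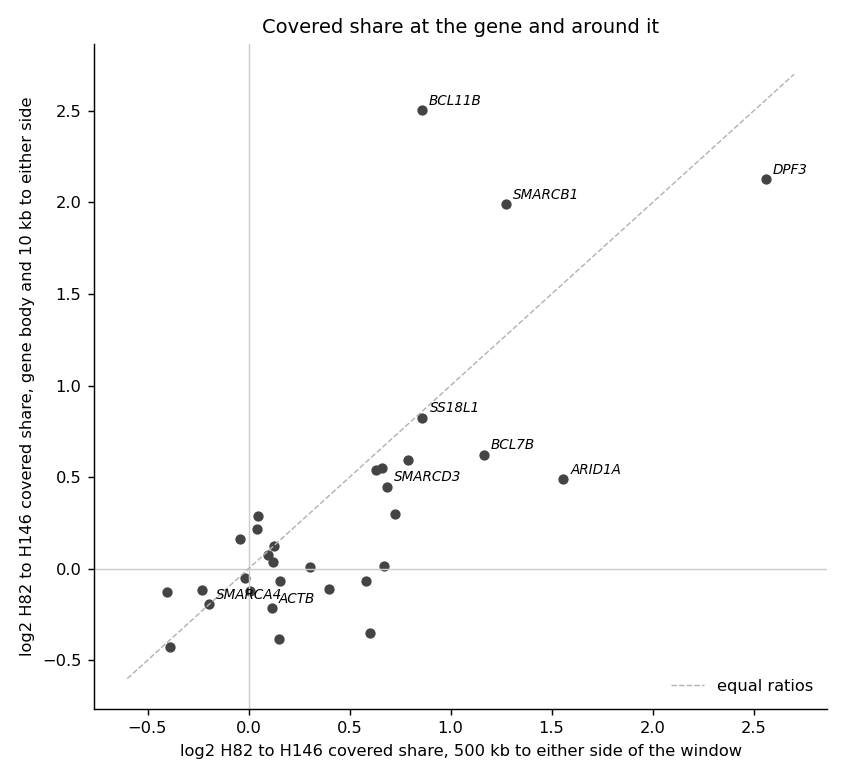
Ratio of H82 to H146 covered share for each member (log2 scale), over the gene body and 10 kb to either side (y axis) against the 500 kb to either side of that window (x axis). BCL11B and SMARCB1 lie above the line of equal ratios, DPF3 and ARID1A below it, and 25 of the 31 points lie to the right of 0.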

How the data were processed

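The authors trimmed reads with Trim Galore 0.4.4, aligned them to hg38 with Bowtie2 2.3.4, removed duplicates with Picard, called peaks per sample with MACS2, removed blacklisted regions and merged peaks of a line within 500 bp into an atlas. They counted reads with featureCounts 1.6.0 and tested them with DESeq2, and those counts were not used here. The deposited values are region starts and ends in bp (other than these, no score or count), 1 atlas per line, with 0 unassigned per-sample columns. Whether cut positions were shifted for Tn5 is not given in the sources used here. Merging joins neighbouring sites, so a width is not that of 1 site.

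Regions were intersected with GENCODE release 44 in Python 3.11.15 with numpy 2.4.6, and intervals came from scipy 1.17.1. Sequences are from the hg38 reference, read with pysam 0.24.0. Scripts were tested on simulated data. Members and lists were chosen with earlier results of these data known. Named with full values were SMARCA4, SMARCA2, members without a TSS region, the 5 largest covered differences, the 5 members with the most line-only regions per line (3 in H146, where 5 further members tied) and the 3 widest TSS regions; others stand in their module. Genes outside the rule, such as BCL11B and PBRM1, were described after their values were seen. No test was made, since each line has 1 atlas.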

Additional observations from a re-analysis of the deposited data

How the results depend on the processing

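Of 51 alternative values, 35 moved little and 16 moved more. The number of members with a TSS region in H82 only went from 1 to 0 with the TSS of any transcript or of the canonical transcript, and to 3 (SMARCA2, SMARCB1 and BCL11B) with regions of at least 500 bp. The 353 regions of H82 at members became 102 within 10 kb of the TSS, and the 312 of H146 became 86. They became 185 and 159 with regions of at least 500 bp. Line-only shares were 46.7% and 39.7% when 50% of both regions had to overlap, and 27.6% and 15.1% with regions of at least 500 bp in both atlases. The median covered difference of 0.60 percentage points was 0.27 in the gene body and 0.035 within 10 kb of the TSS. Relative to the 500 kb to either side, 9 rather than 19 of 31 members were higher in H82, so the majority turned to H146. Median TSS widths of 2186 and 2183 bp became 1405 and 1406 bp as covered bases of the window and 2255 and 2344 bp at the canonical TSS, so which line had the wider median turned with the measure. The canonical TSS, the scaling to surroundings and the widths there were chosen after seeing the data. No paired analysis was possible because each atlas pools all samples of a line. For the same reason, leaving out replicates and the planned test of FHD-286 were not run, and limits set by depth are unknown.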
